A study of Spinacia oleracea with 24 samples.

Results

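Spinach leaves grown at low nitrogen were compared between the end of the dark period and the middle of the light period, using the 6 libraries (of 24 in the series) that carry those labels: 3 low-nitrogen (LN) libraries labelled T1, end of dark, and 3 labelled T2, middle of light. The series profiled poly-A RNA from leaves of 1 cultivar, Space, at 4 times of a single day and at 2 nitrogen levels, from 48-day-old plants kept under 8 h of light per day on a soil-free medium. LN plants received 50 ppm nitrogen and high-nitrogen (HN) plants 200 ppm. Each group held samples of 3 independent plants, so the spread within a group is that between plants, and 1 cultivar and 1 day of sampling limit how far the values extend. The HN libraries of the same times (3 and 3) enter here only where the change at low nitrogen is set beside that at high nitrogen. Of 25494 genes in the table, 16923 reached 1 FPKM or more in 3 or more of these 6 libraries and were tested. FPKM are fragments per kilobase of gene length, here scaled between libraries by size factors and not to a common sum. Changes are differences of mean log2(FPKM + 1), middle of light minus end of dark (a scale on which weakly expressed genes show less than their true change). A gene is said to have risen or fallen where its adjusted p was under 0.05.

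At dawn a leaf passes from living on stored starch to fixing carbon, and its circadian clock has already set much of the transcript pool for the coming day. The plant clock, as worked out in Arabidopsis, is a loop of repressors: LHY and related REVEILLE MYB factors are made around dawn, PRR proteins follow one another through the day, and GIGANTEA and the evening genes come later. Nitrate assimilation, antenna protein synthesis and starch turnover are among the best known outputs of light and the clock in leaves, and nitrogen supply limits the proteins that photosynthesis needs.

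The 6 libraries held 18369094 to 25252705 fragments, recovered as whole numbers from the FPKM steps. End-of-dark replicate 2, the deepest, stood apart from its group: 1208 tested genes (7.14%) lay over 2-fold from the group median there, against 201 to 576 in the other libraries. End-of-dark replicate 1 correlated at 0.90 to 0.93 with the mid-light libraries across genes, and the other end-of-dark libraries at 0.81 to 0.89. The median SD of log2 values was 0.32 at the end of dark and 0.24 in the middle of light. Antenna genes of leaf mesophyll supplied 2.52% to 11.0% of all FPKM, while 10 of 24 root marker genes and 9 of 20 flower and pollen markers were listed at 0 in all 6 libraries. Other members of both lists were detected. The root list summed to 97.1 to 251 FPKM in the dark and 78.5 to 160 in the light, and the flower and pollen list to 23.2 to 35.1 and 29.2 to 37. In bulk leaf RNA, fewer cells of a type and less RNA per cell cannot be told apart.

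Of the 16923 genes, 3618 (21.4%) changed, 1652 (9.76%) rising and 1966 (11.6%) falling into the light. At least 2-fold changes on the log2(FPKM + 1) scale were met by 835 risen and 1018 fallen genes, and at least 8-fold changes by 37 and 61. The spread was estimated over all 24 libraries. On simulated data this fit made somewhat more false calls than its nominal rate, so the count from the 6 libraries alone is given beside it. The groups did not overlap for 3467 of the 3618, and for 6388 (37.7%) of all genes tested. Fitting only the 6 libraries called 1598 genes (9.44%), and 1515 (8.95%) were called by both fits, 647 higher (3.82%) and 868 lower (5.13%). Without end-of-dark replicate 2 the count was 1839, and without mid-light replicate 1 it was 2117. With every library set to the same sum of FPKM, the median change of all genes moved from -0.01 to -0.10, and the share of calls that were higher went from 45.7% to 36.6% (1178 higher, 2037 lower).

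The morning genes LHY, RVE1, RVE5 and RVE8 fell from the end of dark to the middle of light, and GIGANTEA and both APRR5 genes rose. Of 29 genes with a clock name, 22 were tested, of which 5 rose and 8 fell, with a median change of -0.18. Among all genes tested 9.76% rose and 11.6% fell. Both fits called 4 of the risen and 7 of the fallen genes. The risen count was 3 without dark replicate 1 or 2 or light replicate 2 or 3, and the fallen count was 6 to 8 with any 1 library left out. LHY (Spo01117), the morning MYB repressor, stood at 1457, 963 and 1115 FPKM at the end of dark and at 221, 269 and 211 in the middle of light. All 3 dark libraries were several-fold above all 3 light libraries, and the change was -2.31 (SE 0.30, adjusted p = 3.4e-05). It lies on chromosome 2, 59058703 to 59070547, minus strand, in the coordinates of the deposited table.

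RVE1 (Spo19963), a morning factor that in Arabidopsis links the clock to auxin, read 58.9, 115 and 52.9 FPKM in the dark and 13.9, 13.1 and 12.1 in the light. The light libraries were close together and well below the dark ones (-2.36, SE 0.28, adjusted p = 2.1e-05). RVE5 fell by 1.42 (SE 0.20) from 26.7 ± 3.69 to 9.40 ± 1.65 FPKM (SD, n = 3), and RVE8, an activator of evening genes in Arabidopsis, fell by 1.10 (SE 0.30) from 357 ± 56.8 to 166 ± 31.6. RVE8 was not called without mid-light replicate 2 (adjusted p = 0.062).

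Some genes of the evening loop were still above their midday level at the end of the night. APRR1 (Spo08124), the evening repressor also called TOC1, read 16.2, 98.5 and 23.3 FPKM in the dark and 2.42, 2.51 and 5.21 in the light. The groups did not overlap, although dark replicate 2 was about as far above the other dark plants as they were above the light plants (-3.04, SE 0.49, adjusted p = 0.00028). ELF3, part of the evening complex, fell by 0.86 (SE 0.19) from 21.8 ± 2.65 to 11.6 ± 1.85 FPKM. TIC, a clock regulator, read 45.6, 92.9 and 73.5 FPKM in the dark and 22.3, 22.5 and 27.8 in the light (-1.45, SE 0.32, adjusted p = 0.0032).

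JMJ30 (Spo15731), a histone demethylase tied to the clock in Arabidopsis, depended on 1 library. Its values were 3.08, 46.8 and 2.73 FPKM in the dark and 1.05, 0.839 and 1.64 in the light, so that only dark replicate 2 was high. The change of -2.06 (SE 0.65, adjusted p = 0.03) had an adjusted p of 0.20 without that library and was also not called without mid-light replicate 1 or 2 or in the fit of 6 libraries (adjusted p = 0.17).

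On the rising side, GI (Spo04360), the GIGANTEA gene of photoperiod timing, went from 6.04, 10.1 and 5.22 FPKM to 27.2, 41.2 and 40.2 (+2.22, SE 0.32, adjusted p = 0.00011). Every light library was well above every dark library. One APRR5 copy (Spo22291), a daytime repressor of LHY in Arabidopsis, went from 1.34, 8.34 and 3.07 FPKM to 19.1, 19 and 28.1 (+2.35, SE 0.45, adjusted p = 0.0012). A second APRR5 copy (Spo01087) rose less, by 0.66 (SE 0.18) from 24.3 ± 3.56 to 39 ± 5.86 FPKM, and was not called without dark replicate 2 or light replicate 2.

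ADO3, the blue-light receptor FKF1 of flowering time, rose by 1.40 (SE 0.39) from 1.32 ± 0.941 to 4.84 ± 0.912 FPKM, a low level at both times, and lost its call without dark replicate 1 or light replicate 3. PRR73 (Spo13065) rose by 0.78 (SE 0.27) from 32.7 ± 2.92 to 56.6 ± 0.702 FPKM, but its adjusted p of 0.048 passed 0.05 when any of the 6 libraries was left out (up to 0.12). Values for the 9 members not called lay between -0.52 (BOA) and +0.41 (EFL4), and these include the other PRR73 gene (Spo04043, -0.17), the morning genes LNK1, LNK2 and RVE6 (+0.28), and ADO1.

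**Figure D1:**
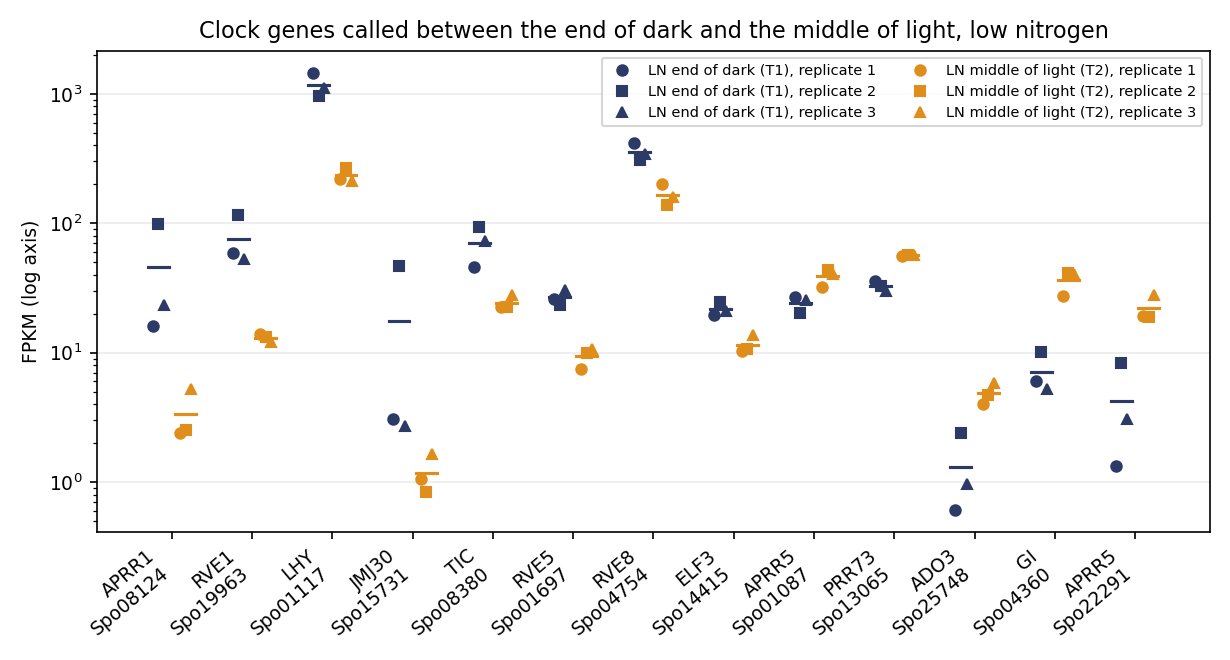
FPKM (log axis) of the 13 called clock genes in the 6 LN libraries, ordered by log2 change; blue marks are end of dark, orange marks middle of light, circles, squares and triangles are replicates 1, 2 and 3, and bars are group means. The 8 fallen genes, from APRR1 to ELF3, have all blue marks above all orange ones, and the square of JMJ30 stands alone at 46.8.

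The cyclic DOF factors, repressors of the flowering gene CONSTANS in Arabidopsis, were also dawn-high. Of 40 tested light signalling and flowering genes, 4 rose and 13 fell (median -0.10), beside 9.76% and 11.6% of all genes tested. The risen share was thus near that of all genes. Both fits called 2 and 8. There were 8 fallen genes without light replicate 1 and 8 risen ones without dark replicate 1. CDF1 (Spo04720) read 5.59, 15.4 and 5.84 FPKM in the dark and 0.186, 0.145 and 0.261 in the light (-2.92, SE 0.31, adjusted p = 6e-06). A second CDF1 gene (Spo10686) went from 35.3, 45.9 and 28.3 FPKM to 9.11, 8.81 and 10.4 (-1.82, SE 0.36, adjusted p = 0.0015). Both genes had nonoverlapping groups, and CDF2 (-1.12, SE 0.19) and CDF3 (-0.95, SE 0.25) fell as well. CDF3 was not called without dark replicate 3 or light replicate 1 (adjusted p up to 0.061).

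Of 8 tested CONSTANS-like COL genes 4 fell and 4 were not called, the latter between -0.46 and +0.54 (COL9, COL15 and the COL16 genes). COL2 (Spo12296) was among the abundant factors at 689, 884 and 732 FPKM in the dark against 207, 261 and 232 in the light (-1.71, SE 0.32, adjusted p = 0.0011). COL5 (Spo21162) went from 122, 381 and 206 FPKM to 49.2, 48.5 and 44.5 (-2.14, SE 0.46, adjusted p = 0.0027), with the dark plants spread widely and the light plants tight. COL4 and COL13 fell by 0.61 and 0.89.

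Among light signalling genes that rose, a COP1 gene (Spo13615), the ubiquitin ligase that removes light-signalling factors, went from 3.33, 2.22 and 3.34 FPKM to 17.5, 22.6 and 14.8 (+2.28, SE 0.24, adjusted p = 5.2e-06). The other COP1 gene (Spo02820) measured 19.3 ± 0.929 and 15.4 ± 0.284 FPKM and was not called (adjusted p = 0.26). The blue-light receptor PHOT1 rose by 1.18 (SE 0.28) from 75.5 ± 36.3 to 161 ± 3.07 FPKM, and BBX22, a B-box factor, by 1.13 (SE 0.20). CRY1, the cryptochrome receptor, fell by 0.63 (SE 0.17) from 325 ± 23.2 to 210.0 ± 9.08 FPKM, a call lost without dark replicate 2 or light replicate 1 (adjusted p up to 0.065).

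Light-harvesting antenna transcripts were higher in the light in every plant. Summed over 19 antenna genes, the libraries held 40686, 23197 and 21706 FPKM in the dark and 75560, 96974 and 75296 in the light. Every light library exceeded every dark one, and dark replicate 1 was nearest to them. As a share of all FPKM the antenna went from 2.52% to 4.99% in the dark to 8.14% to 11.0% in the light. Of the 19 genes 6 rose and none fell (0), all 6 in both fits, beside 9.76% and 11.6% of all genes tested. The median was +1.03 beside -0.01 for all genes tested. Without dark replicate 1 the count of risen genes was 11.

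LHCB3 (Spo10927), an inner antenna protein of photosystem II, read 1061, 265 and 253 FPKM in the dark and 6236, 7421 and 5095 in the light (+3.89, SE 0.76, adjusted p = 0.0014). A CB2A gene (Spo03024), one of the major trimer proteins, went from 1842, 824 and 462 FPKM to 6310.2, 9580.2 and 6329 (+3.03, SE 0.74, adjusted p = 0.0072). CB4, a photosystem II antenna protein, rose by 3.16 (SE 0.60), LHCB4.1 (Spo26398) by 2.42 (SE 0.63) and LHCA1 of photosystem I by 2.01 (SE 0.47). In all of them the dark plants varied more than the light plants, with replicate 1 highest.

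Members of the same family did not all move. CB2A gene Spo10529 measured 3495 ± 561 and 5311 ± 315 FPKM (+0.62, adjusted p = 0.37), and CAB36, with 15372 ± 2647 FPKM in the light, was at +1.79 (adjusted p = 0.061). LHCB4.1 gene Spo09766 and LHCB7 stood at +0.27 and -0.08. The CB2A genes are near-identical in name and function, how reads shared between them were assigned is not stated, and values of single copies are therefore uncertain.

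Photosystem and electron transport genes moved the same way by less. Their summed FPKM was 49997, 29625 and 35944 in the dark and 67215, 81971 and 66828 in the light, again without overlap. Of 40 tested genes 15 rose and none fell (0), beside 9.76% and 11.6% of all genes tested. The median was +0.86, but both fits called only 4. Without dark replicate 2 there were 2 calls, and without dark replicate 3 there were 8. Leaving out mid-light replicate 1, 2 or 3 left 4, 5 or 10, and leaving out dark replicate 1 gave 24.

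PSAN (Spo02453), a lumenal subunit of photosystem I, read 960.2, 596 and 544 FPKM in the dark and 1946, 2483 and 1973 in the light (+1.64, SE 0.40, adjusted p = 0.0069). PETF, the ferredoxin that passes on photosystem I electrons, went from 1863, 856 and 1305 FPKM to 3475, 4016 and 2983 (+1.44, SE 0.34, adjusted p = 0.0055). Both held in each fit that left out a library. PSBS (Spo23712), needed for heat dissipation in strong light, went from 628, 113 and 414 FPKM to 1455, 1825 and 1151. Its change of +2.23 (SE 0.53, adjusted p = 0.0062) had an adjusted p of 0.053 without dark replicate 2, where it was lowest, and 0.055 in the fit of 6 libraries.

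Further abundant genes of photosystem II, PSBP of the oxygen-evolving complex (+1.33, SE 0.42, adjusted p = 0.029) and psbW (+1.11, SE 0.38, adjusted p = 0.042), lost their calls in most fits that left out a library (adjusted p up to 0.15 and 0.14, without dark replicate 2). Neither was called in the fit of 6 libraries.

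Chlorophyll synthesis held the largest rise among the genes named here. One of the PORA genes (Spo18320), for the light-dependent protochlorophyllide reductase, read 12.6, 6.67 and 2.22 FPKM in the dark and 362, 318 and 134 in the light. No dark plant came near a light plant, and the change was +5.17 (SE 0.93, adjusted p = 0.00076). The more abundant PORA gene (Spo19511) went from 526, 163 and 298 FPKM to 1105, 1225 and 1115 (+1.96, SE 0.33, adjusted p = 0.00046). Of 26 tested genes of the pathway 8 rose and none fell (0), beside 9.76% and 11.6% of all genes tested, with a median of +0.58.

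Other steps were less firm. CHLH (Spo20716), a subunit of the magnesium chelatase, rose by 1.26 (SE 0.43, adjusted p = 0.044) and CRD1 (Spo05339), a later cyclase, by 1.18 (SE 0.39, adjusted p = 0.035). Both lost their calls without dark replicate 2 or 3 or without light replicate 1 or 2, and CHLH also without light replicate 3 (adjusted p up to 0.19). Both fits called 3 genes of the list. It held 2 calls without dark replicate 2, light replicate 1 or light replicate 2, and 3 without dark replicate 3.

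**Figure D2:**
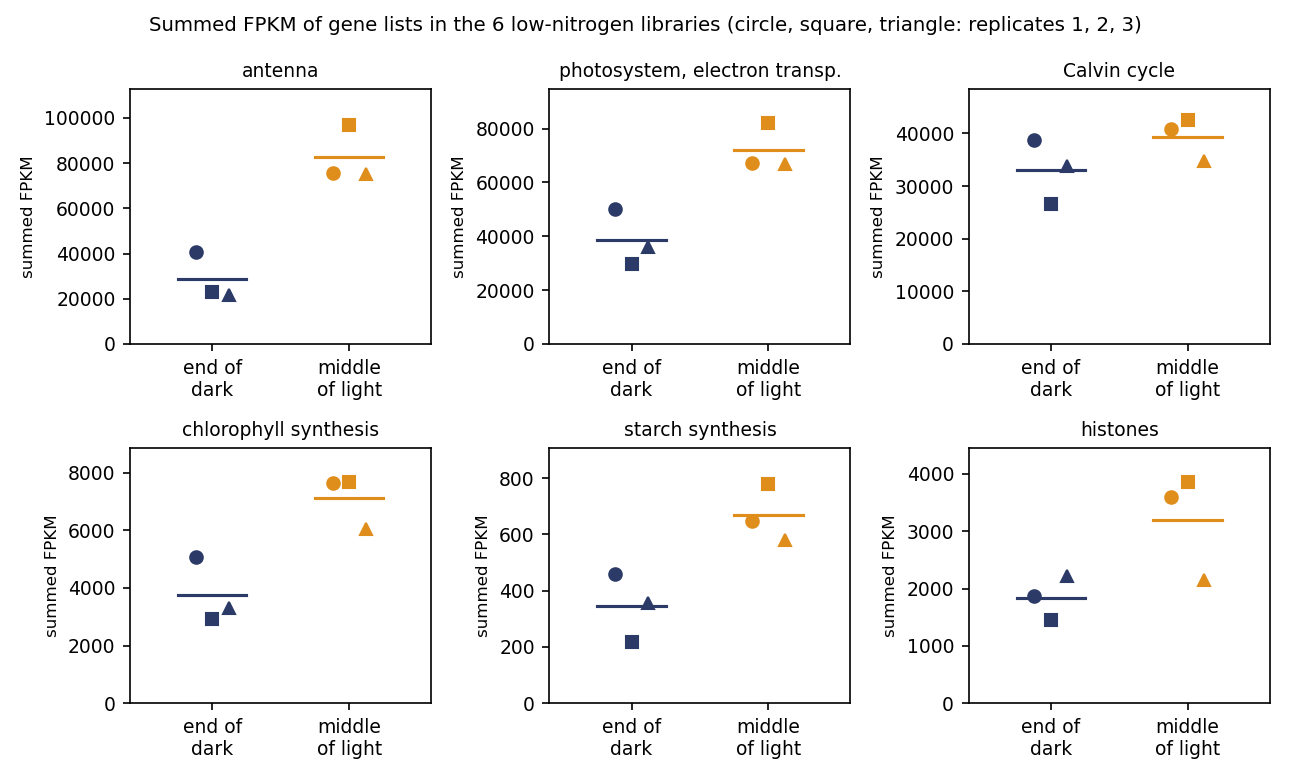
Summed FPKM of 6 gene lists in each LN library, end of dark (blue) and middle of light (orange), with circles, squares and triangles for replicates 1, 2 and 3 and a bar at the mean. The groups do not overlap for the antenna, photosystem, chlorophyll synthesis and starch synthesis sums, but they do for the Calvin cycle and the histones.

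Of 30 tested Calvin cycle genes 4 rose, near the 9.76% of all genes, and none fell (0). The median was +0.33, and neither a higher nor a lower gene was called by both fits (0). The risen count was 1 or 2 when any 1 library other than dark replicate 1 was left out. FBA2, a plastid aldolase, read 61.6, 8.5 and 26.6 FPKM in the dark and 109, 193 and 92.7 in the light (+2.31, SE 0.53, adjusted p = 0.0046; 0.06 in the fit of 6 libraries). The Rubisco small subunit genes RBCS2 lay between -0.05 and +1.08 with no call, and their copies may share reads. The Rubisco activase gene RCA (Spo00116) measured 5561 ± 687 and 4309 ± 526 FPKM (adjusted p = 0.41). CAT2, the catalase that clears photorespiratory peroxide, rose by 1.73 (SE 0.49) from 346 ± 160.3 to 1160.0 ± 562 FPKM, a call lost without dark replicate 3 or light replicate 3 (adjusted p up to 0.077).

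A majority of starch synthesis genes rose. Of 19 tested genes 11 rose and none fell (0), beside 9.76% and 11.6% of all genes tested, with a median of +0.79. The summed FPKM went from 460.1, 216 and 356 to 649, 781 and 579. SBEI (Spo06399), a branching enzyme, read 22, 8.41 and 20.2 FPKM in the dark and 46.6, 62.7 and 49 in the light (+1.68, SE 0.28, adjusted p = 0.00038). SS3 (Spo04154), a soluble starch synthase, went from 19.4, 8.36 and 20.7 FPKM to 33, 50.2 and 45.6 (+1.43, SE 0.30, adjusted p = 0.0026). In both genes dark replicate 2 was lowest and the groups were apart.

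The granule-bound starch synthase WAXY (Spo25919) was more variable, at 76.3, 7.32 and 17 FPKM in the dark and 74.7, 176 and 63.5 in the light, and its groups overlapped. Its change of +2.08 (SE 0.66, adjusted p = 0.03) was not called without dark replicate 2 or 3 or light replicate 1 or 2 (adjusted p up to 0.20). Both fits called 4 genes of the list. Without dark replicate 2 there were 4 calls, and without light replicate 1 or 2 there were 7 or 6.

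Starch breakdown genes moved both ways. Of 26 tested genes 4 rose and 5 fell (median +0.15), beside 9.76% and 11.6% of all genes tested, and both fits called 2 and 3. Without dark replicate 2 none rose (0) and 3 fell, and without light replicate 2 there were 2 risen genes. Of 12 tested beta-amylase genes 4 fell and 8 were not called, with values from -0.31 (BAM3 gene Spo09756) to +0.87 (BAM2 gene Spo01659) for the latter. BAM1 (Spo15691), a plastid enzyme that releases maltose, read 117, 236 and 288 FPKM in the dark and 20.5, 32.9 and 29.3 in the light (-2.84, SE 0.30, adjusted p = 6.9e-06). BAM9, a noncatalytic relative in Arabidopsis, went from 78.1, 87 and 85.1 FPKM to 21.3, 29.7 and 25 (-1.69, SE 0.26, adjusted p = 0.00018). BMY1 fell by 1.24 (SE 0.24). BAM3 (Spo09720), the main leaf beta-amylase of Arabidopsis, fell by 1.99 (SE 0.53, adjusted p = 0.011) with 31.7, 113 and 17.9 FPKM in the dark, and was not called without dark replicate 2, the high one (adjusted p = 0.094).

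The risen genes were R1, MEX1, AMY3 and LSF1. The glucan water dikinase R1, which marks starch for degradation, went from 36.3, 21.3 and 21.4 FPKM to 47.3, 81.6 and 51.7 (+1.16, SE 0.31, adjusted p = 0.011). The maltose exporter MEX1 went from 13.6, 2.77 and 11.7 FPKM to 36.3, 27.1 and 23.2 (+1.73, SE 0.42, adjusted p = 0.007), and the plastid alpha-amylase AMY3 rose by 0.91 (SE 0.22). One LSF1 gene (Spo18211), related to glucan phosphatases, rose by 0.82 (SE 0.25), and AMY1.1 (Spo04828), an alpha-amylase, fell by 0.54 (SE 0.16). Neither was called in the fit of 6 libraries (adjusted p = 0.13 and 0.18) or without dark replicate 2 (adjusted p = 0.17 and 0.15). None of the calls of R1, MEX1 and AMY3 held without dark replicate 2 (adjusted p = 0.057 for MEX1 and 0.051 for AMY3), and R1 also failed without light replicate 2 (adjusted p = 0.066).

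More sugar transport and sucrose genes fell than rose. Of 33 tested genes 3 rose and 9 fell (median -0.31), beside 9.76% and 11.6% of all genes tested. The risen share was near that of all genes. Both fits called 1 and 8. A single gene rose (1) without light replicate 1 or 2, and 7 to 9 fell with any 1 library left out. INVC (Spo11725), a neutral invertase, read 14.5, 73.2 and 33.3 FPKM in the dark and 3.02, 3.59 and 4.19 in the light (-2.89, SE 0.47, adjusted p = 0.00031). STP13, a hexose importer of the plasma membrane, went from 23.5, 38.3 and 33.7 FPKM to 2.84, 6.7 and 8.05 (-2.32, SE 0.50, adjusted p = 0.0028). The SUC4 genes, for a vacuolar sucrose transporter, fell by 1.42 (Spo07942) and 1.19 (Spo07941), and their groups did not overlap. In the other direction SWEET17, a vacuolar fructose transporter in Arabidopsis, rose by 1.36 (SE 0.28) from 13.1 ± 4.76 to 34 ± 8.38 FPKM, and TPPD, a trehalose-phosphate phosphatase, rose by 1.26 (SE 0.29).

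The ammonium transporter AMT1-3 (Spo21031) read 10.6, 2.92 and 17.4 FPKM at the end of dark and 107, 81.7 and 124 in the middle of light. Every light plant was far above every dark plant (+3.46, SE 0.60, adjusted p = 0.00057). AMT1-1 rose by 1.62 (SE 0.41) from 4.04 ± 3.19 to 12.9 ± 3.59 FPKM but not without dark replicate 2 (adjusted p = 0.076). Among 43 tested NRT and NPF transporters 5 rose and 4 fell, near the 9.76% and 11.6% of all genes, and both fits called 3 and 2. Their median was -0.20, or +0.05 without light replicate 1. Without dark replicate 2 the counts were 3 and 2, and without light replicate 2 they were 3 and 4. NPF2.13, a nitrate transporter that moves nitrate out of older Arabidopsis leaves, went from 24.6, 7.89 and 12.1 FPKM to 73.4, 141 and 89.2 (+2.77, SE 0.33, adjusted p = 1.9e-05).

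NPF4.6 rose by 1.62 (SE 0.21) and NPF5.6 by 1.27 (SE 0.29). NPF6.3, the nitrate transceptor of Arabidopsis, read 6.75, 0.224 and 8.45 FPKM in the dark and 19.2, 13.6 and 29.5 in the light (+2.22, SE 0.75, adjusted p = 0.04), with dark replicate 2 almost at 0. It lost its call without that library (adjusted p = 0.27) or without any 1 light library. On the falling side, NPF1.2 went from 5.53, 7.06 and 13.1 FPKM to 0.566, 1.14 and 1.09 (-2.24, SE 0.35, adjusted p = 0.00022), and NRT2.3 and NRT2.5 fell by 1.51 and 1.30. NRT2.5 was not called without dark replicate 2 (adjusted p = 0.069).

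Nitrate and nitrite reductase did not pass the threshold. Nitrate reductase NIA (Spo23607) measured 835, 598 and 853 FPKM in the dark and 359.9, 293 and 436 in the light, all dark values above all light values, at -1.07 (SE 0.42, adjusted p = 0.073). The fit of 6 libraries gave an adjusted p of 0.043. Nitrite reductase NIR measured 206, 264 and 309 FPKM and then 198, 112 and 114 (-0.90, SE 0.37, adjusted p = 0.084). The glutamine synthetase gene GLNA (Spo27300) fell by 1.19 (SE 0.18) from 155 ± 37.8 to 66.8 ± 10.6 FPKM, the other GLNA gene (Spo01186) stood at +0.56 (adjusted p = 0.54), and GLSN, a glutamate synthase, fell by 1.43 (SE 0.34), though not without dark replicate 2 (adjusted p = 0.055).

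Asparagine synthetases parted: ASN3 read 35.6, 38 and 35.8 FPKM and then 17, 16.3 and 16.1 (-1.10, SE 0.29, adjusted p = 0.012), with plants of a group almost equal, while ASN2 rose by 0.75 (SE 0.17). In all, 3 of 24 nitrate and ammonium genes rose and 4 fell (median -0.12), or 2 and 2 without dark replicate 2. These shares are near the 9.76% and 11.6% of all genes tested. Of 11 nitrate regulators 1 fell, again near the share of all genes. It was BT3, by 1.36 (SE 0.38), a call lost without dark replicate 2 or light replicate 1.

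Abscisic acid genes, best known for drought responses, fell more often than they rose. Of 28 tested 1 rose and 9 fell (median -0.28), beside 9.76% and 11.6% of all genes tested. Both fits called 4 of the fallen, and 8 to 11 fell with any 1 library left out. NCED1 (Spo19923), for the rate-limiting step of abscisic acid synthesis, read 35.3, 149 and 86.7 FPKM in the dark and 6.95, 14.9 and 13.6 in the light (-2.67, SE 0.58, adjusted p = 0.003). A second NCED1 gene (Spo18701) fell by 1.75 (SE 0.36). ABF2 (Spo07813), a bZIP factor of abscisic acid response, went from 87.8, 265 and 269.7 FPKM to 16, 22.7 and 21.3 (-3.16, SE 0.33, adjusted p = 5.2e-06). PP2CA, a phosphatase that turns the pathway down, fell by 1.48 (SE 0.33) from 278 ± 141 to 88.5 ± 14.8 FPKM.

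Several stress-type AP2/ERF factors fell from uneven dawn levels. Of 65 tested ethylene and DREB genes 4 rose and 11 fell (median -0.22), beside 9.76% and 11.6% of all genes tested, and both fits called 1 and 9. ERF061 (Spo21370) read 51.1, 237 and 106 FPKM in the dark and 2.55, 3.44 and 4.2 in the light (-4.66, SE 0.63, adjusted p = 6.4e-05). ERF9 went from 269, 663 and 404 FPKM to 102, 95.8 and 91.7 (-2.10, SE 0.32, adjusted p = 0.00016). DREB1A (Spo26866), a cold-response factor in Arabidopsis, read 5.67, 66.7 and 6.39 FPKM in the dark and was listed at 0, 0.145 and 0 in the light. EBF2 (Spo15548), an F-box protein of ethylene signalling, rose by 1.49 (SE 0.22).

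WRKY, NAC and receptor-like kinase families were picked out after their values were seen for their falling members, and their counts are descriptive. Among all genes tested 9.76% rose and 11.6% fell. Of 28 tested WRKY factors, regulators of defence and senescence, 14 fell and 1 rose (median -0.93), 9 of the fallen in both fits. WRKY40 read 12.7, 52.2 and 29.4 FPKM in the dark and 0.951, 1.39 and 2.33 in the light (-3.49, SE 0.53, adjusted p = 0.00018), and WRKY53 fell by 2.82 (SE 0.46). Of 19 NAC factors 8 fell and none rose (0; 3 in both fits), and of 33 cysteine-rich receptor-like kinases and their relatives 13 fell and 2 rose (5 and 2 in both fits). CRK25 (Spo07337) went from 45.6, 74.5 and 157 FPKM to 1.87, 5.14 and 5.28 (-4.10, SE 0.54, adjusted p = 5.2e-05). MPK3, a mitogen-activated kinase of stress signalling, went from 156, 248 and 509 FPKM to 11.2, 21.4 and 20 (-3.92, SE 0.44, adjusted p = 1.1e-05).

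CML42, a calmodulin-like protein, read 43.6, 64.3 and 84.5 FPKM in the dark and 2.47, 4.3 and 2.89 in the light (-3.92, SE 0.46). TIFY10A (Spo09995), a jasmonate repressor, went from 74.7, 199 and 76.4 FPKM to 1.59, 8.62 and 6.94 (-4.18, SE 1.13, adjusted p = 0.013), a call lost without dark replicate 2 or light replicate 1 (adjusted p up to 0.069). The dark libraries did not rank alike in these genes: replicate 2 was highest for ERF061, ERF9, WRKY40 and TIFY10A, and replicate 3 for CRK25, MPK3 and CML42. Dark replicate 1 was the lowest of the dark plants in all of these genes and in ABF2 and NCED1, and so lay nearest to the light plants. The part of plant-to-plant differences at the end of dark in these changes was not tested.

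SAG113 (Spo09215), a senescence phosphatase in Arabidopsis, read 9.04, 46.5 and 50.9 FPKM in the dark and at most 0.473 in the light (-4.59, SE 0.48, adjusted p = 5.9e-06). SLE3, a seed-protein relative, read 20.8, 341 and 28.7 FPKM and then 2.66, 2.91 and 2.53, so that dark replicate 2 was more than 10-fold above the other plants (-4.03, SE 0.87, adjusted p = 0.0031). CPC, a cupredoxin by name, and CXE6, a carboxylesterase, fell by 4.07 (SE 0.69) and 3.95 (SE 0.79).

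Some DNA replication and histone genes rose, unevenly across plants. In the cell division list of 65 tested genes, 23 rose and 3 fell (median +0.86), beside 9.76% and 11.6% of all genes tested. Both fits called 14 and 1. PCNA, the replication clamp, read 7.6, 5.8 and 6.59 FPKM in the dark and 45.7, 26.5 and 19.2 in the light (+1.96, SE 0.41, adjusted p = 0.0026). MCM7, part of the replicative helicase, went from 2.75, 0.366 and 1.09 FPKM to 14.8, 7.5 and 6.5 (+2.19, SE 0.48, adjusted p = 0.0033). Light plants were above dark plants in both genes, with light replicate 1 highest.

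Histone H3 gene HTR2 (Spo08214) read 11.1, 1.13 and 2.5 FPKM in the dark and 121, 77.3 and 16.9 in the light (+3.63, SE 1.13, adjusted p = 0.027). Its call was lost without dark replicate 2 or 3 or light replicate 1 or 2 (adjusted p up to 0.13). The sum over all histone genes was 1862, 1445 and 2216 FPKM in the dark and 3604, 3852 and 2149 in the light, so light replicate 3 lay among the dark plants. Of 28 tested histone genes, grouped after their values were seen, 11 rose, and 1 did without dark replicate 2. The whole list held 6 risen genes without dark replicate 2, 7 without light replicate 1, 14 without dark replicate 3 or light replicate 2, and 29 without dark replicate 1 or light replicate 3. Histone copies are alike and may share reads. MCM3 (Spo27301) went the other way, from 84 ± 24.2 to 40.4 ± 4.77 FPKM (SE of the log2 change 0.20, adjusted p = 0.0018), while a second gene with an MCM3 name (ROA2) rose by 2.80 (SE 0.64).

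Some auxin and cell wall genes rose, at shares not far above the 9.76% of all genes tested. Their fallen shares were below the 11.6% of all genes. Of 80 auxin genes 11 rose and 5 fell (median +0.34; 7 and 1 in both fits). Without dark replicate 2 or light replicate 1 the counts were 7 and 1, and leaving out dark replicate 3, light replicate 2 or light replicate 3 left 8 and 1, 9 and 1, and 9 and 2. SAUR36 (Spo11416), of a family of small growth proteins, went from 2.02, 1.44 and 4.91 FPKM to 10.5, 53.7 and 35.2 (+3.01, SE 0.64, adjusted p = 0.0026), and the auxin efflux carrier PIN1A rose by 1.21 (SE 0.19). Of 75 cell wall genes 11 rose and 5 fell (median +0.50; 5 and 3 in both fits). The risen count was 5 without light replicate 1, 6 without dark replicate 2 or 3 or light replicate 2, and 18 without dark replicate 1, and the fallen count was 2 without light replicate 1 and 3 without dark replicate 2. PGIP1, an inhibitor of pectin-degrading enzymes, rose by 1.83 (SE 0.26), and CSLD2, a cellulose synthase-like gene, fell by 2.48 (SE 0.40) from 19.3 ± 11.7 to 2.14 ± 0.393 FPKM.

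Cytosolic ribosome and proteasome lists showed few calls in either direction, and heat shock and redox genes were called at shares near the 21.4% of all genes tested. Of 210 cytosolic ribosome genes 5 rose and 4 fell (median -0.08), of 69 proteasome and autophagy genes 4 and 3 (median 0.00), of 66 heat shock genes 7 and 8 (median +0.01), and of 66 redox genes 8 and 4 (median +0.14). These shares are below or near the 9.76% and 11.6% of all genes. Without dark replicate 2 no redox gene rose (0), the risen and fallen heat shock genes were 2 and 5, the ribosome genes 1 and 2, and the proteasome and autophagy genes 1 and 1. Heat shock genes had 12 and 5 without dark replicate 3 and 3 and 5 without light replicate 1. Their members that moved include the plastid chaperone HSP21, which went from 0.67, 0 and 0.472 FPKM to 10.2, 4.67 and 3.19 (+2.25, SE 0.32), and HSFB2B, a heat stress factor, which fell by 2.15 (SE 0.34).

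**Figure D3:**
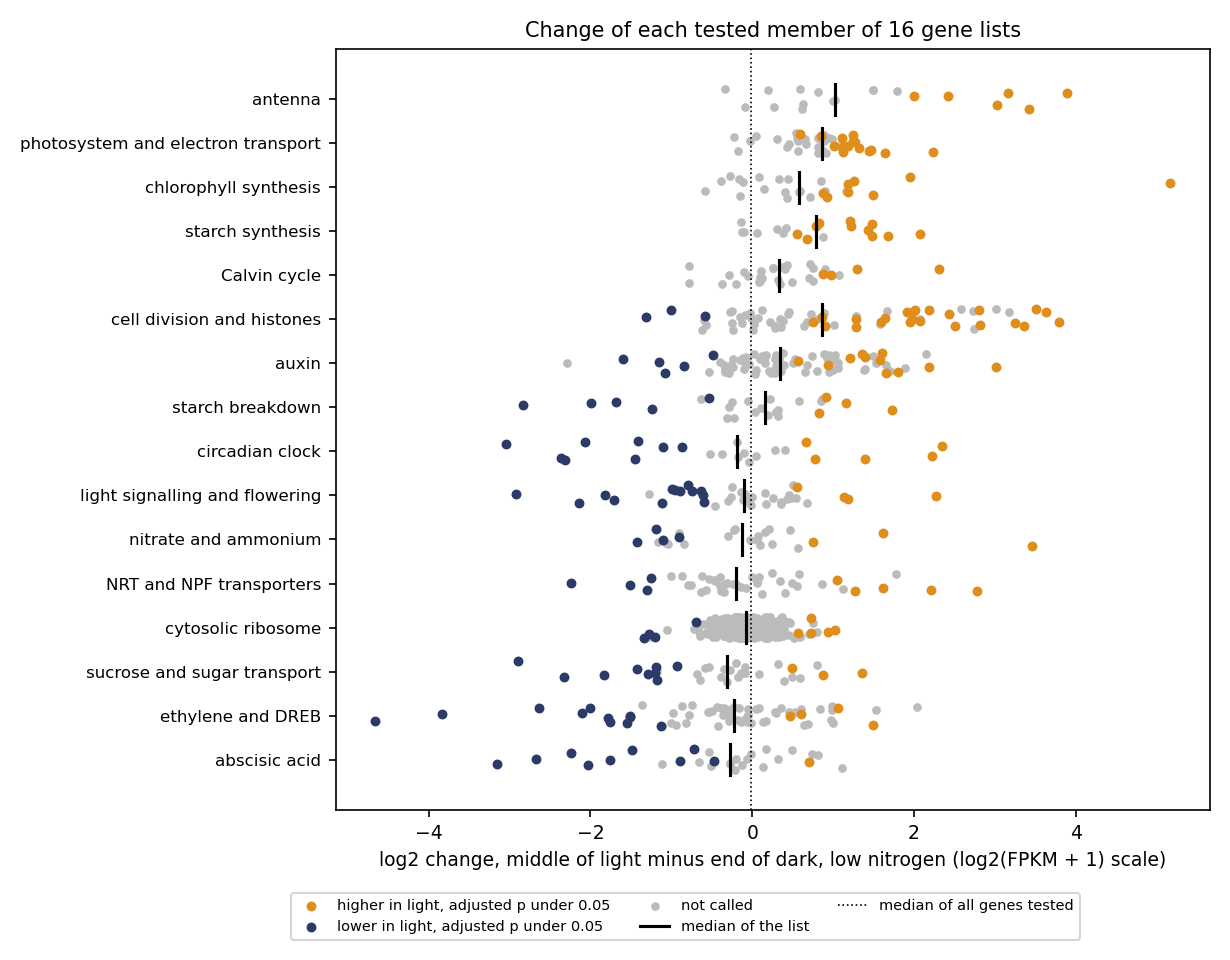
Log2 change (middle of light minus end of dark, low nitrogen) of every tested member of a selection of the gene lists, 1 dot per gene. Orange dots rose, blue dots fell, grey dots were not called, and the dotted line is the median of all genes tested (-0.01). Antenna, photosystem, chlorophyll and starch synthesis dots lie mostly to the right with no blue dot, and sugar transport and abscisic acid dots include more blue than orange.

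Among the largest rises outside these lists, ASR1, CIPK25, HPL and GNS1 had groups that did not overlap. ASR1 (Spo20053), named for abscisic acid, stress and ripening, read 9.1, 11.6 and 6.31 FPKM in the dark and 105, 123 and 158 in the light (+3.71, SE 0.32, adjusted p = 8.9e-07). CIPK25, a kinase of calcium signalling, went from 7.72, 0.765 and 3.34 FPKM to 40.5, 57.1 and 63 (+3.72, SE 0.38, adjusted p = 4.7e-06). HPL, which makes leaf aldehydes from fatty acid hydroperoxides, went from 22.8, 0.582 and 9.67 FPKM to 164, 173 and 118 (+4.35, SE 0.64, adjusted p = 0.00012). In CIPK25 and HPL dark replicate 2 was lowest. GNS1, a glucanase, rose by 3.55 (SE 0.51) from 74.7 ± 28.7 to 869 ± 281 FPKM, and DBR and STR14 rose by 3.65 (SE 0.36) and 3.56 (SE 0.41).

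Of the most abundant fallen genes besides LHY, NRP1, nodulin-related by name, read 1465, 2196 and 1739.5 FPKM in the dark and 651, 1074 and 980.2 in the light (-1.01, SE 0.28, adjusted p = 0.015). MBS1, a mediator of singlet oxygen responses in Arabidopsis, fell by 1.09 (SE 0.30) and SAMDC, of polyamine synthesis, by 1.08 (SE 0.38). NRP1 lost its call without dark replicate 2 or light replicate 1, MBS1 without dark replicate 2 or light replicate 2, and SAMDC without any 1 of the 6 libraries (adjusted p up to 0.12).

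Marker genes of other leaf cell types were examined beside these changes. Of 10 guard cell markers 1 fell, near the 11.6% of all genes tested. It was a KAT2 channel gene (Spo16760), which fell by 0.97 (SE 0.23). The summed guard cell markers spanned 137 to 159 FPKM in the dark and 123 to 154 in the light. Of 15 tested epidermis and wax markers 5 fell, beside 11.6% of all genes, and both fits called 2 of them. The count was 3 without dark replicate 2 or light replicate 2 or 3. The 5 were KCS1, from 114 ± 27.9 to 33.3 ± 10.3 FPKM (-1.77, SE 0.30), KCS2 (-1.36, SE 0.29), CUT1 (-0.80, SE 0.19), CER3 (-0.79, SE 0.26) and KCS11 (-0.57, SE 0.20). CER3 and KCS11 lost their calls without dark replicate 2 (adjusted p up to 0.26 and 0.21) or other single libraries. Their summed FPKM was 538 to 596 in the dark and 305 to 379 in the light. Of 2 tested phloem markers PP2A10 rose, by 0.97 (SE 0.24), and none of 5 tested root markers changed (0). The part of cell composition in the changes above was not tested.

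Most changes called at low nitrogen had the same direction at high nitrogen, though many were not called there. In HN leaves 4788 of the same genes changed (28.3%), 2320 higher (13.7%) and 2468 lower (14.6%). Of the 3618 LN calls 93.1% had the same sign at HN, against 74.3% of all genes tested. Both levels called 2035 genes in the same direction, 56.2% of the LN calls and 42.5% of the HN calls, and 9 in opposite directions. Across the 16923 genes the LN and HN changes correlated at r = 0.65, a description over genes that share libraries within each level. LHY fell by 2.24 at HN and GI rose by 3.39, beside -2.31 and +2.22 at LN, and neither difference between the levels passed the test (adjusted p = 0.96 and 0.27).

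**Figure D4:**
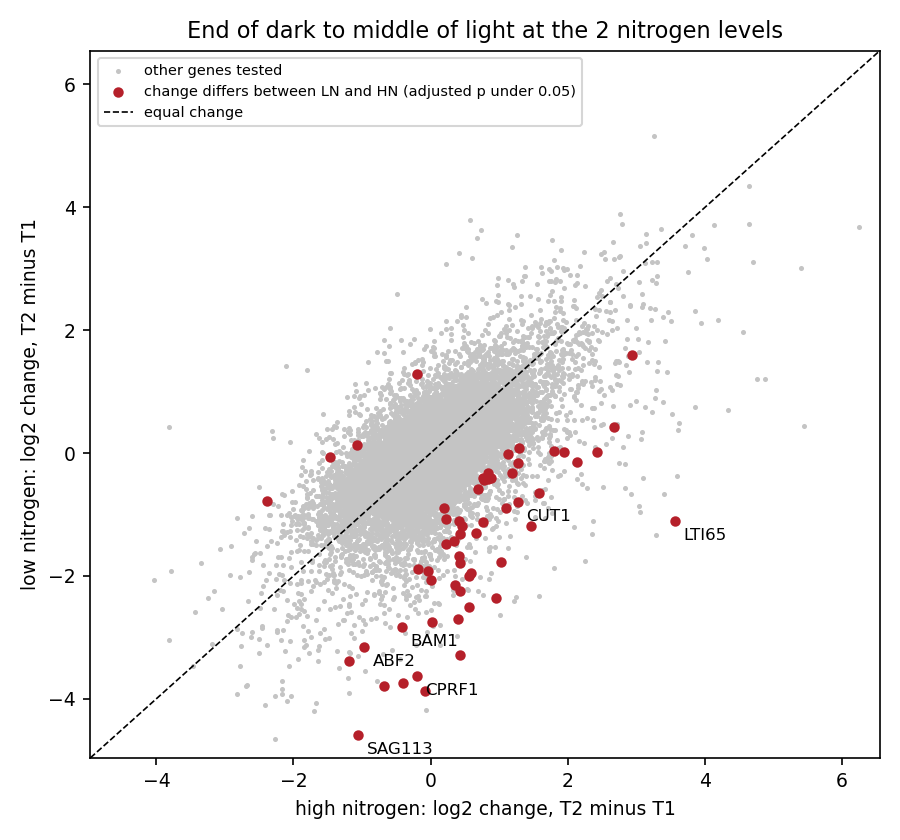
Log2 change from end of dark to middle of light at low nitrogen (vertical) against high nitrogen (horizontal) for each of 16923 genes; red points are the 57 genes whose change differed, and the dashed line marks equal change. Of the red points, 53 lie below the line.

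The change differed between the nitrogen levels for 57 genes (0.337%), of which 38 carry a protein name. At an unadjusted p under 0.05 there were 2240, and a voom fit on the recovered fragments called 13. A fit of only the 12 LN and HN libraries of these times, tried after the data were seen, called none (0 with limma, 2097 at an unadjusted p under 0.05, smallest adjusted p 0.078), so the calls depend on the spread estimated over all 24 libraries. The test compares changes on the log2(FPKM + 1) scale, where an equal fold at different low levels is an unequal change. With a pseudocount of 0.1, nearer to a fold, 25 of the 57 were called and 32 were not, SAG113, ABF2, PUB21, DREB1B and HSFA6b among the latter. By the tests within each level, 37 of the 57 fell at LN and 23 rose at HN, 16 of the latter without a call at LN. In 53 of the 57 the LN change was the more negative, and the same number were higher at LN than at HN at the end of dark. The median LN-minus-HN difference of the 57 was +1.70 at the end of dark and -0.18 in the middle of light. Because the difference and the LN change share the LN libraries, these are 2 views of the same values. The count was not steady. Leaving out LN end-of-dark replicate 1, 2 or 3 gave 213, 116 or 6, and leaving out LN mid-light replicate 1, 2 or 3 gave 12, 17 or 9. Leaving out HN end-of-dark replicate 1, 2 or 3 gave 10, 36 or 11, and HN mid-light replicate 1, 2 or 3 gave 11, 37 or 107.

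CUT1 (Spo21466), the fatty acid elongase of leaf wax, had the smallest adjusted p. Its FPKM at HN was 22, 19.8 and 26.6 at the end of dark and 51.6, 51.9 and 66.3 in the light, and at LN 71.8, 94.7 and 110.9 and then 48.9, 59.8 and 47.8. HN plants went up and LN plants went down, all 4 groups but the 2 light groups being apart, and the difference of the changes was -2.08 (SE 0.27, adjusted p = 0.0042). CUT1, the glycosyltransferase BC10 (-2.56, SE 0.40, adjusted p = 0.012) and the mannosidase MNS3 (-1.96, SE 0.31, adjusted p = 0.012) were called under each of 20 other settings, but each had an adjusted p of 0.078 in the fit of 12 libraries.

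CPRF1 (Spo01619), a bZIP factor named from parsley, showed another form, in which LN stood out at the end of dark alone. It read 3.61, 8.67 and 5.05 FPKM at HN end of dark and 29.9, 91.1 and 89.1 at LN end of dark, and its means in the light were 4.74 ± 1.49 at HN and 4.36 ± 2.12 at LN. The difference of the changes was -3.43 (SE 0.55, adjusted p = 0.013; 0.051 without LN end-of-dark replicate 3). BAM1 followed the same form, with 27.5 ± 1.55 and 21.2 ± 8.35 FPKM at HN and 214 ± 87.8 and 27.6 ± 6.34 at LN (-2.42, SE 0.43, adjusted p = 0.021), though it was not called without HN dark replicate 1 or 3, HN light replicate 1, LN dark replicate 3 or LN light replicate 1 or 3 (adjusted p up to 0.072).

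LTI65, a low-temperature and abscisic acid response gene, moved in HN only by its own test, from 5.53 ± 0.807 to 93.3 ± 76.6 FPKM (+3.57, adjusted p = 0.0003), and stood at 53.9 ± 44.8 and 20.4 ± 8.4 at LN (-1.11, adjusted p = 0.19). The difference was -4.67 (SE 0.85, adjusted p = 0.024). RWA2, of wall acetylation, rose at HN by 1.18 and stood at -0.32 at LN, differing by 1.51 in size (SE 0.27, adjusted p = 0.021). PUB21, TBL16 and DREB1B had differences of -1.87, -1.77 and -2.22. All 5 genes lost their calls without HN dark replicate 1 or 3, HN light replicate 1 or LN light replicate 3, and some of them without other single libraries (adjusted p up to 0.093).

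SAG113 and ABF2 reached the threshold less firmly. SAG113 measured 1.43 ± 0.534 and 0.156 ± 0.162 FPKM at HN and 35.5 ± 23 and 0.223 ± 0.229 at LN (-3.53, SE 0.68, adjusted p = 0.029), called in 9 of 20 settings. With 1 library left out, its call held without HN dark replicate 2, HN light replicate 3 or LN dark replicate 1 or 2 and was lost otherwise (adjusted p up to 0.10). ABF2 measured 40 ± 4.9 and 20.2 ± 4.63 FPKM at HN and 208 ± 104 and 20 ± 3.56 at LN (-2.19, SE 0.46, adjusted p = 0.044), called in 6 of 20. Its call held without HN light replicate 2 or LN dark replicate 1 and was lost without any other single library (adjusted p up to 0.14). In CPRF1, BAM1, ABF2 and SAG113 LN dark replicate 1 was the lowest of its group, yet above every HN dark plant.

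**Figure D5:**
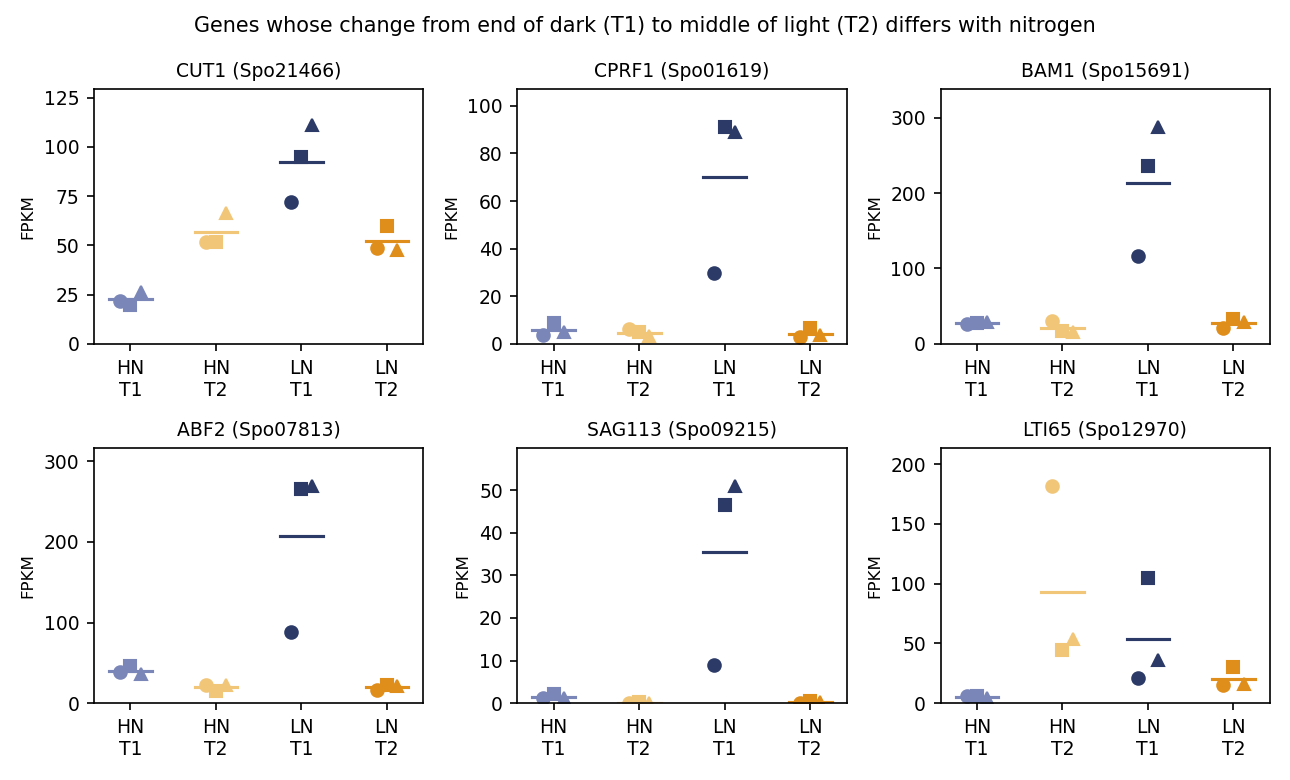
FPKM of 6 genes whose change differed with nitrogen, in each library of HN and LN at the end of dark (T1) and middle of light (T2); circles, squares and triangles are replicates 1, 2 and 3, and bars are means. In CPRF1, BAM1, ABF2 and SAG113 the LN T1 plants stand above the other 3 groups, in CUT1 HN rises while LN falls, and in LTI65 HN T1 is lowest.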

How the data were processed

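Per the labels' protocols, poly-A RNA of spinach leaves went into dUTP (directional) libraries for the NovaSeq X Plus. Per the submitters' processing notes, HISAT2 and RSEM were used, and DESeq2 at version 1.20.0. The series title names the Sp75 genome. The authors deposited FPKM per gene for 24 libraries. Low FPKM values were whole multiples of 1 fragment's worth, and fragments were recovered from them (100.0% whole within 0.01). The scaling between libraries matched median-of-ratios size factors of these fragments to within 0.0078%. Library sums of FPKM therefore differed, from 653215 to 1008934. Names, coordinates and gene length are those of the deposited table, which takes protein names from Swiss-Prot. Handling of shared reads and of strand: not given in the sources used here.

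Genes that reached 1 FPKM in 3 or more of the 6 libraries were tested on log2(FPKM + 1), pseudocount 1, with limma 3.58.1 in R 4.3.3: 8 group means over 24 libraries, trended variance moderation, and a threshold of 0.05 on p adjusted by Benjamini-Hochberg over all 16923 genes. Every adjusted p given is from limma. The same model gave the difference between the LN and HN changes. Tested on simulated data, the model made somewhat more false calls of the light change than its nominal rate. The fit of 6 libraries was nearer to it. Which genes were falsely called was not recorded. The test of the nitrogen difference kept its rate where changes were set equal on the log2(FPKM + 1) scale. Where they were set equal in fold, it made false calls in numbers that approached the real count. Its rate under the wider spread of the LN end-of-dark group was not tested. The median SD of log2 values was 0.32 in that group, 0.24 at LN mid-light, 0.23 at HN end of dark and 0.28 at HN mid-light.

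Genes, lists, markers and tests were chosen with earlier results of these data known. Named genes are clock members, the 2 members of each list with the smallest adjusted p, the 10 largest changes each way, the 5 most abundant called genes each way, the 10 leading named genes of the nitrogen difference, and key enzymes; others were chosen after their values were seen. Alternatives changed the pseudocount (0.1), filter, scaling, libraries fitted, weights and replicate block, or left out 1 library. No sequence of these genes was used here.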

Additional observations from a re-analysis of the deposited data

Results flagged for a closer look

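The change from end of dark to middle of light differed between low and high nitrogen, by a test of the difference itself, for 57 genes (0 in a fit of only the 12 libraries of these times). Differences are LN change minus HN change on the log2 scale. Among the named genes of the report they were -3.43 for CPRF1, -1.87 for PUB21, -1.96 for MNS3, -2.56 for BC10, -4.67 for LTI65, -2.42 for BAM1, -1.51 for RWA2, -2.22 for DREB1B, -1.77 for TBL16 and -2.08 for CUT1. Members of the gene lists added -2.53 for HSFA6b and -2.19 for ABF2, and SAG113, among the largest falls, added -3.53.

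DREB1B was listed at 0 in all 3 HN end-of-dark and all 3 LN mid-light libraries, so its difference depends on the pseudocount. HSFA6b read 5.91, 10 and 24 FPKM at LN end of dark and 2.6 ± 0.208 at HN end of dark. Its call held in 6 of 20 settings.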

How the results depend on the processing

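No called gene that was named or listed changed sign. List medians near 0 did: NRT and NPF transporters went from -0.20 to +0.05 without mid-light replicate 1, cytosolic ribosome from -0.08 to +0.10 without mid-light replicate 2, heat shock from +0.01 to -0.09 with a common sum, and flavonoid genes from -0.07 to +0.16 without end-of-dark replicate 1, beside smaller shifts across 0 in proteasome, guard cell and root lists. The 3618 calls of the change into the light became 1853 with a 2-fold threshold, 1991 with only the 12 LN libraries, 1598 with only the 6 libraries and 1515 when called in both fits, a rule added after seeing the data. Leaving out 1 library gave 1839 to 4269. Of the 3618, 1475 were called in all 6 such fits, and 1846 were lost without end-of-dark replicate 2. Listed genes called, 263, became 147 with the 12 LN libraries, 144 with the 6, and 133 to 315 with 1 library left out. The 57 genes differing with nitrogen became 370 with array weights, 25 with a pseudocount of 0.1, 13 with voom on recovered fragments, 0 with only the 12 LN and HN libraries of both times (added after seeing the data), and 6 to 213 with 1 library left out. Of 413 called genes named or listed, 161 were called in all 17 settings. Depth was 18369094 fragments or more per library, and its effect on these counts was not tested.

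Same-numbered LN libraries of end of dark and middle of light deviated from their group means with correlations of 0.08, -0.16 and 0.21. So few values cannot show whether the numbers pair the plants, and the labels do not say. The numbers were therefore not treated as pairs. With the number as a replicate block the counts were 3163 in all libraries, 1357 in the 6, 138 listed genes in the 6 and 16 genes differing with nitrogen.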
